A study of Homo sapiens with 12 samples.

Results

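The genes described here are 7 transcription factors of the luminal prostate lineage and partners of FOXA1: NR3C1, GATA2, GATA3, GRHL2, SOX9, HNF4G and NFIB. They were taken by gene symbol from the deposited count tables, in which each of the 7 had 1 row among 60106 genes. The rule used no measured value, but the 7 genes were chosen with earlier results of these data known. The tables come from RNA sequencing of PC3 and VCaP, established human prostate cancer cell lines from ATCC. In each line, 3 libraries came from cells given a non-targeting siRNA (NSI) and 3 from cells given an siRNA against FOXA1 (siFOXA1), and RNA was taken after 72 h. PC3 cells grew in RPMI-1640, received 20 nM siRNA and were sequenced from polyadenylated RNA. VCaP cells grew in DMEM, received 40 nM siRNA and were sequenced from total RNA. The cells of all 12 libraries therefore received a transfected siRNA, and the line, the dose, the medium and the library type cannot be told apart. By its title, the study asked how FOXA1 affects splicing and the genes behind it. The counts bear here on what happened to the other lineage factors when FOXA1 was lowered.

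FOXA1 is a forkhead pioneer factor: it binds sites in closed chromatin and opens them for other regulators, among them steroid receptors and GATA factors. In luminal prostate epithelium, GATA2, GRHL2 and NFI proteins are known to bind beside FOXA1 at enhancers, and SOX9 takes part in prostate bud growth. NR3C1 encodes the glucocorticoid receptor, which can take over part of the androgen programme in treated prostate cancer, and GATA3 is a luminal factor of breast and bladder.

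FOXA1 itself fell in both lines. In PC3 it was measured, in counts scaled by library size and TMM factors within a line (CPM), at 296, 247 and 261 with NSI and at 165, 184 and 164 with siFOXA1. Its PC3 mean of 268 ± 25.6 CPM (SD, n = 3) dropped to 171 ± 11.5 CPM, or by 0.65 on the log2 scale (SE 0.0991, edgeR quasi-likelihood test, adjusted p 0.0022). VCaP libraries had 458, 468 and 544 CPM with NSI and 85.2, 73.6 and 83.1 CPM with siFOXA1, a drop by 2.60 on that scale (SE 0.0947, adjusted p 1.84e-07). The groups did not overlap in either line, and 16.5% of the NSI level was left in VCaP against 63.8% in PC3. The two-sided exact permutation test returned 0.1 for both lines, its lowest possible p with 3 libraries a group. The difference between the lines was −1.93 on the log2 scale (SE 0.149, adjusted p 3.12e-07), so the 7 genes were read under a weaker knockdown in PC3 than in VCaP. PC3 libraries held 123140099 to 188226483 counts and VCaP libraries 48187047 to 59839211, with 13.1% to 15.7% and 3.02% to 4.69% in mitochondrial genes.

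The 7 genes were expressed at very different levels in the lines. Levels of different genes are given as TPM, which divides counts by exon length and then scales each library to the same total. In PC3 NSI cells SOX9 led, at 41.6 ± 4.0 TPM (SD, n = 3), above 87.4% of 20298 protein-coding genes. NR3C1 followed at 11.2 ± 1.64 TPM and NFIB at 9.41 ± 0.269 TPM. The ranges of these neighbours overlapped, though NR3C1 was the higher within each library. HNF4G was at 4.66 ± 1.03, GATA3 at 3.31 ± 0.138, GATA2 at 0.619 ± 0.0510 and GRHL2 at 0.0540 ± 0.0194 TPM, each below the last without overlap. In VCaP NSI cells the order began with GATA2 at 73.2 ± 6.76 TPM and GRHL2 at 53.0 ± 7.06 TPM, above 98.3% and 97.5% of protein-coding genes. NFIB was at 27.4 ± 4.95 and SOX9 at 4.6 ± 0.864 TPM. NR3C1, at 1.43 ± 0.190 TPM, and HNF4G, at 1.19 ± 0.119 TPM, overlapped, though NR3C1 was the higher within each library. GATA3 came last at 0.0275 ± 0.0169 TPM. The gene that led in one line was thus not the one that led in the other, and the lowest gene of each line, GRHL2 in PC3 and GATA3 in VCaP, was measured from few fragments.

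As ratios of mean TPM, VCaP NSI cells had 981 times the PC3 level of GRHL2, 118 times that of GATA2 and 2.91 times that of NFIB. PC3 NSI cells had 120.4 times the VCaP level of GATA3, 9.06 times that of SOX9, 7.82 times that of NR3C1 and 3.92 times that of HNF4G. These ratios are descriptions without a test. They depend on the share of mitochondrial transcripts: with mitochondrial genes left out, the GRHL2 ratio became 654, that of GATA2 77.9 and that of NFIB 1.92, and the PC3-over-VCaP ratios became 183 for GATA3, 13.7 for SOX9, 11.9 for NR3C1 and 5.97 for HNF4G. The ratios also depend on the scale. By CPM, scaled within a line, NFIB was at 55.1 in PC3 NSI and 338 in VCaP NSI cells. HNF4G was at 11.6 and 6.30 CPM. FOXA1 was higher in PC3 NSI cells by TPM (167 against 143) but higher in VCaP NSI cells by CPM (490 against 268). The cause was not tested. None of the 7 genes changed the line in which it was higher. After the knockdown the order of mean TPM stayed as it was in VCaP, while the ranges of GATA2, at 49.8 ± 12.0 TPM, and GRHL2, at 32.2 ± 5.18 TPM, came to overlap, as did those of GRHL2 and NFIB, at 23.8 ± 2.99 TPM. Within each VCaP siFOXA1 library GATA2 was still above GRHL2 and GRHL2 above NFIB. In PC3 siFOXA1 cells the mean of GATA3, at 4.46 ± 0.372 TPM, passed that of HNF4G, at 4.24 ± 0.350 TPM, with overlapping ranges. Only in replicate 2 was GATA3 the higher (4.78 against 3.95 TPM), and in replicates 1 and 3 HNF4G stayed slightly higher.

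**Figure D1:**
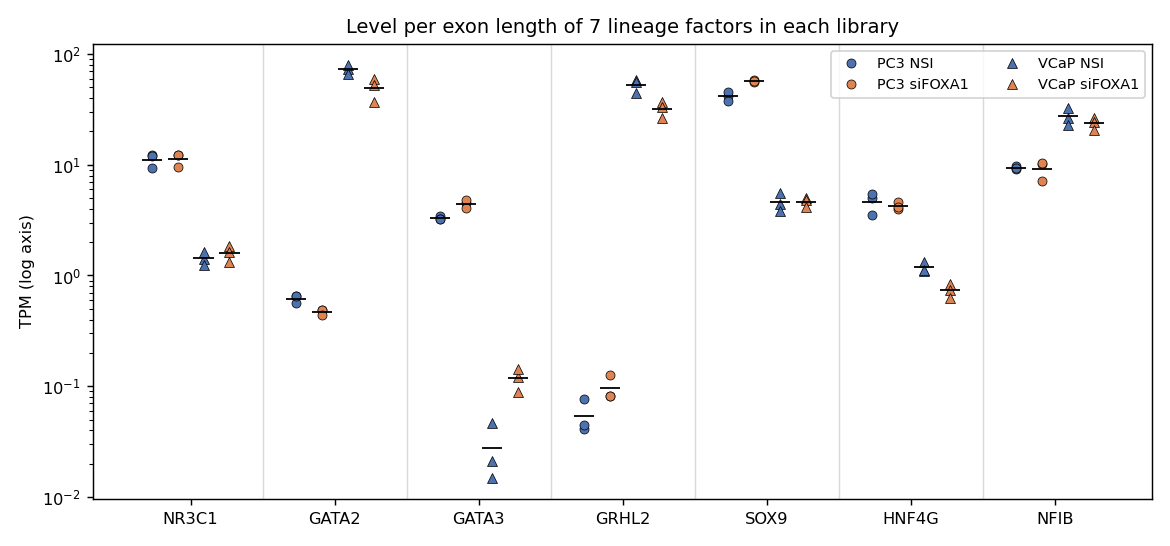
TPM of the 7 genes (logarithmic axis) in each of the 12 libraries: circles are PC3, triangles VCaP, blue NSI and orange siFOXA1, and bars mark the mean of 3 libraries. GRHL2 and GATA2 lie far higher in VCaP and GATA3 and SOX9 higher in PC3, by more than any difference between NSI and siFOXA1.

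Under the knockdown, 2 of the 7 genes were called in PC3, SOX9 higher and GATA2 lower. Over all genes 27% of the 26435 tested were called in PC3 (15% higher, 12.1% lower), so 2 of 7 is close to the background. In VCaP 5 of the 7 were called, NR3C1 and GATA3 higher and GATA2, GRHL2 and HNF4G lower, against 45.8% of all 22925 genes tested (22.5% higher, 23.3% lower). A call means an adjusted p under 0.05 over all genes tested in that line. Fits with the replicate number as a block called 11297 genes in PC3 in place of 7149, and 3 of the 7 in place of 2. The groups did not overlap for 3 of the 7 in PC3, 2 higher and 1 lower, against 44.4% of all genes (23.9% higher, 20.5% lower). In VCaP this held for 5 of the 7, 2 higher and 3 lower, against 55.9% (27.9% higher, 28% lower). Both calls in PC3 were lost whichever 1 of the 3 siFOXA1 libraries was left out. Then 0 of the 7 were called by the edgeR test, while 2 or 3 had an unadjusted p under 0.05. The log2 fold changes in these fits were 0.32 to 0.34 for SOX9 and −0.58 to −0.48 for GATA2. Calls over all genes also fell there, from 7149 to between 3945 and 6663. The DESeq2 test on all 6 libraries also called 2 of the 7 in PC3. In bulk RNA, fewer cells expressing a gene and less of its RNA per cell cannot be told apart.

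**Figure D2:**
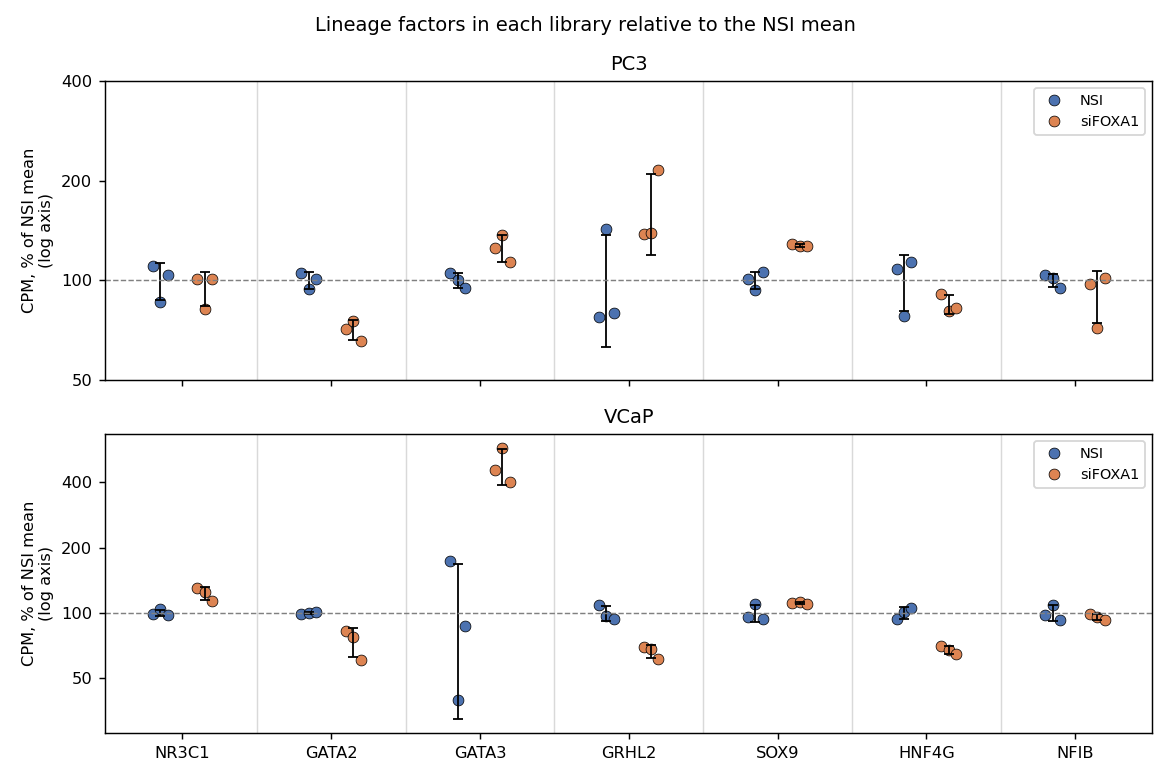
CPM in each library as a percentage of the NSI mean of that gene and line (logarithmic axis), with mean ± SD bars for 3 libraries a group, blue NSI and orange siFOXA1. GATA2 is low in siFOXA1 in both lines, GRHL2 and HNF4G are low in VCaP, and the wide bars of GRHL2 in PC3 and GATA3 in VCaP are those of the lowest counts.

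The glucocorticoid receptor gene NR3C1 (ENSG00000113580.14_4, chromosome 5, 142657496 to 142815077, minus strand, GRCh37) rose modestly in VCaP and was not called in PC3. VCaP NSI libraries had 13.6, 14.4 and 13.6 CPM and siFOXA1 libraries 18.1, 17.2 and 15.7 CPM. All 3 siFOXA1 values lay above the NSI values, and the mean went from 13.9 ± 0.483 to 17.0 ± 1.21 CPM (SD, n = 3 each). Its log2 fold change of 0.30 (SE 0.0764) had an adjusted p of 0.0111, and the call was lost without NSI replicate 1 (adjusted p 0.0526), without siFOXA1 replicate 1 (0.0547) and in a fit of all 12 libraries (0.0524). In TPM the VCaP groups overlapped, at 1.40, 1.63 and 1.25 with NSI and 1.85, 1.64 and 1.32 with siFOXA1. TPM uses no TMM factors. The edgeR fit with library size alone does not use them either, and there the change was 0.28 and called (adjusted p 0.0387). In PC3 the values were 56.5, 43.9 and 52.8 CPM with NSI and 51.5, 41.7 and 51.6 CPM with siFOXA1. The replicate 2 library was the lowest of its group both times, the groups overlapped, and the log2 fold change was −0.08 (95% interval −0.37 to 0.20, adjusted p 0.658). The difference between the lines, 0.40 (SE 0.163), was not called (adjusted p 0.0992). It was called with the replicate block (adjusted p 0.00682) and without PC3 NSI replicate 2 (adjusted p 0.0387).

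Promoter windows from RefSeq (GRCh38.p14, a later build than the GRCh37 of the counts) were matched for 4 of the 7 genes: 7 windows for NR3C1, 2 for GATA2, 6 for GATA3 and 10 for NFIB. Each window runs from 250 bases before to 50 after an annotated start. The FOXA motif TGTTTAC, searched on both strands, was in 1 of the 25 windows, and 3.42% of all 35116 windows in the table hold it. The GATA motif AGATAA was in 2 of the 25 (10.3% of all windows), the steroid receptor half-site TGTTCT in 1 (14.8%), the SOX motif ACAATG in 2 (10.8%) and the NFI half-site TTGGCA in 6 (12.5%). At most 3 letters at the end of one of these motifs are also the start of another. The window with the FOXA motif belongs to NR3C1, and that match shares 0 bases with a match of the other motifs. The 250 bases before the start are shown for that window and for both GATA2 starts, because GATA2 was the one gene of the 7 called lower in both lines and its windows held none of the 5 motifs. Capitals mark the FOXA motif, which begins 59 bases before the start, and all sequences run 5′ to 3′ on the minus strand, the strand of both genes.
NR3C1 chr5:143403284-143403533: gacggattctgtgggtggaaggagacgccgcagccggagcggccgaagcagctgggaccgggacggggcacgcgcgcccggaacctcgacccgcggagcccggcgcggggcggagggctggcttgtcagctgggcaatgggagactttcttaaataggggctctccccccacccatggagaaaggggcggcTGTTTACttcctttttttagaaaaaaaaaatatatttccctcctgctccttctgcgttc
GATA2 chr3:128493202-128493451: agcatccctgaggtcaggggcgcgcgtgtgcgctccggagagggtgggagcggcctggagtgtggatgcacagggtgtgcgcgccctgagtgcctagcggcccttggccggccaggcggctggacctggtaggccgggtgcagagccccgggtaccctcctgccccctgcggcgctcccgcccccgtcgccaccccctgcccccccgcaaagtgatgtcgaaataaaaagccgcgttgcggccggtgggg
GATA2 chr3:128488531-128488780: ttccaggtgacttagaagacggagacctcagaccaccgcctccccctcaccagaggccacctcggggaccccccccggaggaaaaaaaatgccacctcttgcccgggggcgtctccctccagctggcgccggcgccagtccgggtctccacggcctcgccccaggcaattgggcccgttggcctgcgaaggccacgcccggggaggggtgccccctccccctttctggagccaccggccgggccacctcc
These letters describe the windows only and show neither binding nor its absence.

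HNF4G (ENSG00000164749.11_4, chromosome 8, 76320271 to 76479078, plus strand), a nuclear receptor of gut epithelium that a subset of prostate cancers expresses, fell in VCaP. NSI libraries there had 5.87, 6.38 and 6.64 CPM and siFOXA1 libraries 4.45, 4.25 and 4.06 CPM. The siFOXA1 values were all lower and close together, with means of 6.30 ± 0.388 and 4.25 ± 0.195 CPM (SD, n = 3 each), or 67.5% of NSI. This log2 fold change of −0.57 (SE 0.0977, adjusted p 0.00122) was called in all 13 alternatives run. In PC3 the values were 12.5, 9.03 and 13.2 CPM with NSI and 10.5, 9.36 and 9.51 CPM with siFOXA1, with NSI replicate 2 below all 3 siFOXA1 libraries. The fold change of −0.24 (95% interval −0.57 to 0.09) was not called (adjusted p 0.259). Without that NSI library it was −0.39 and called (adjusted p 0.0176). The lines did not differ beyond their error (difference −0.30, adjusted p 0.310). Reads of HNF4G can be shared with its processed pseudogene HNF4GP1, since reads with several places were divided among them.

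GATA2 (ENSG00000179348.11_3, chromosome 3, 128198270 to 128212028, minus strand), a zinc-finger factor that acts with FOXA1 at prostate enhancers, was called lower in both lines, from levels far apart. In VCaP it was at 325, 326 and 331 CPM with NSI and at 270.05, 254 and 199 CPM with siFOXA1. All siFOXA1 libraries were below all NSI libraries, and they were more spread out, with means of 327 ± 3.27 and 241 ± 37.3 CPM (SD, n = 3 each). The log2 fold change was −0.44 (SE 0.106, adjusted p 0.00756). In PC3 GATA2 was at 1.37, 1.22 and 1.31 CPM with NSI and at 0.929, 0.980 and 0.852 CPM with siFOXA1, again without overlap. That change of −0.50 (SE 0.150) had an adjusted p of 0.0385. It missed the threshold in 7 of 13 alternatives, with adjusted p from 0.0519 to 0.125, namely without NSI replicate 1 or 3, without any 1 of the siFOXA1 libraries, with library size alone and with no filter on low counts, while the direction stayed lower in all 13. The 2 changes left 73.7% of the NSI level in VCaP and 70.8% in PC3, and their difference of 0.08 (95% interval −0.26 to 0.43, adjusted p 0.800) was not called.

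GATA3 (ENSG00000107485.16_3, chromosome 10, 8096616 to 8117166, plus strand), the close relative of GATA2, went the other way. In VCaP it was nearly silent in NSI, with 9, 2.5 and 5 deposited counts per library, and had 23, 29 and 21 counts in siFOXA1. These counts correspond to 0.173, 0.0399 and 0.0869 CPM against 0.457, 0.577 and 0.40 CPM. The siFOXA1 libraries were all higher, and the log2 fold change of 2.22 (SE 0.393, adjusted p 0.00141) rests on 16.5 counts in NSI against 73 in siFOXA1. It stayed called in all 13 alternatives, from 1.87 without NSI replicate 2 to 2.82 without NSI replicate 1. In PC3, where GATA3 was well measured, it was at 6.09, 5.80 and 5.47 CPM with NSI and at 7.26, 7.94 and 6.55 CPM with siFOXA1. The PC3 groups did not overlap, with means of 5.79 ± 0.314 and 7.25 ± 0.694 CPM, yet the change of 0.32 (SE 0.112) was not called (adjusted p 0.0625). With the replicate block it was called (adjusted p 0.0180), and likewise with library size alone (0.0326) or upper-quartile factors (0.0421) as the scaling. The VCaP change exceeded the PC3 change by 1.93 (SE 0.376, adjusted p 0.00156).

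GRHL2 (ENSG00000083307.11_4, chromosome 8, 102504660 to 102681954, plus strand), a grainyhead factor that maintains epithelial junction genes, fell in VCaP. The NSI libraries had 364, 323 and 314 CPM and the siFOXA1 libraries 233, 227 and 204 CPM. No siFOXA1 value reached the lowest NSI value, and the mean went from 334 ± 26.4 to 221 ± 15.4 CPM (SD, n = 3 each), 66.3% of NSI. The log2 fold change was −0.59 (SE 0.0826, adjusted p 0.000328) and was called in all 13 alternatives run. PC3 had only 18.5, 32.3 and 23.8 deposited counts of GRHL2 in NSI and 37, 28.5 and 59.5 in siFOXA1. The PC3 groups overlapped, and 0.73 (95% interval −0.06 to 1.52) was not called (adjusted p 0.152), though it was in the fit of all 12 libraries (0.77, adjusted p 0.0275). The difference between the lines was −1.33 (SE 0.274, adjusted p 0.00238). For GRHL2, 0.944% of the exon bases overlap the antisense gene KB-1562D12.1, which had at most 0.5 counts in a PC3 library and 47.3 to 66 in a VCaP library. The exons of the other 6 genes overlap no exon of another gene in the tables.

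SOX9 (ENSG00000125398.6_3, chromosome 17, 70117161 to 70122561, plus strand), an HMG-box factor of progenitor cells and cartilage, rose in PC3, where it was the most abundant of the 7. It was at 92.5, 85.6 and 96.7 CPM with NSI and at 118, 117 and 116 CPM with siFOXA1. The siFOXA1 libraries lay within a narrow band above NSI, with means of 91.6 ± 5.61 and 117 ± 1.02 CPM (SD, n = 3 each). Its log2 fold change of 0.35 (SE 0.0818) had an adjusted p of 0.0145, and between 0.0515 and 0.0728 when 1 siFOXA1 library was left out. In VCaP the values were 20.5, 23.6 and 20.0 CPM with NSI and 23.8, 24.1 and 23.5 CPM with siFOXA1, so that NSI replicate 2 reached into the siFOXA1 range. The VCaP change of 0.15 (95% interval −0.01 to 0.32, adjusted p 0.119) was not called, and without that NSI library it was 0.22 and called (adjusted p 0.0265). The lines did not differ beyond their error (difference −0.17, adjusted p 0.337).

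NFIB (ENSG00000147862.16_2, chromosome 9, 14081842 to 14398982, minus strand), a nuclear factor I protein that shares enhancers with FOXA1, was not called in either line or in any alternative. In VCaP it was at 331, 369 and 315 CPM with NSI and at 333, 324 and 313 CPM with siFOXA1, a log2 fold change of −0.07 (95% interval −0.24 to 0.11, adjusted p 0.514). PC3 had 57.2, 55.9 and 52.3 CPM with NSI and 53.8, 39.5 and 56.0 CPM with siFOXA1, with siFOXA1 replicate 2 the lowest. That change was −0.15 (95% interval −0.45 to 0.15, adjusted p 0.440). Neither interval reaches the −0.59 found for GRHL2 in VCaP.

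**Figure D3:**
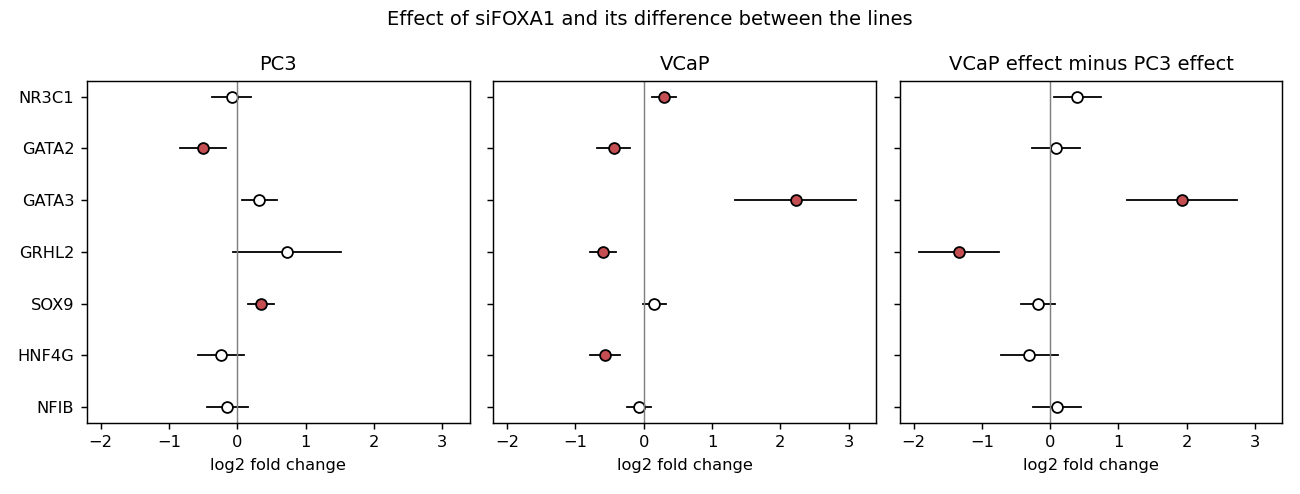
Log2 fold change of siFOXA1 against NSI in PC3 and VCaP, and the VCaP change minus the PC3 change, with 95% intervals of the edgeR fits of 6, 6 and 12 libraries; filled points had an adjusted p under 0.05. Filled points lie on both sides of 0 in each panel, and those for GATA3 and GRHL2 in the right panel mark a difference between the lines.

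Across the lines the difference in response was called for 2 of the 7 genes, GATA3 and GRHL2, 1 in each direction, against 22.2% of all 30425 genes tested (11.3% higher, 11% lower in VCaP). Each of these 2 had the lowest counts of the 7 in one line, GATA3 in VCaP and GRHL2 in PC3. The other 5 differences ranged from −0.30 for HNF4G to 0.40 for NR3C1 and were not called. The median log2 fold change of the 7 was −0.08 in PC3 and −0.07 in VCaP, beside 0.02 over all genes in each line, and in each line 3 of the 7 changes were positive and 4 negative.

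Relatives of the 7 in their protein families moved in both directions. The counts called in this and the following lists are to be read beside the shares over all genes. Those shares were 15% higher and 12.1% lower in PC3, 22.5% and 23.3% in VCaP, and 11.3% and 11% for the difference. Of 13 relatives tested in PC3, 1 was called higher and 2 lower (median −0.14), and of 12 in VCaP 5 were called higher and 5 lower (median 0.09). The PC3 counts ran from 1 to 3 higher and from 1 to 4 lower over the alternatives. In VCaP the progesterone receptor gene PGR rose from 6.53 ± 0.872 to 19.9 ± 2.69 CPM (log2 fold change 1.61, SE 0.126, adjusted p 9.1e-06). NR3C2, the mineralocorticoid receptor and closest relative of NR3C1, rose in both lines, by 0.66 in VCaP (adjusted p 0.00179) and 0.46 in PC3 (adjusted p 0.00896). The NFI paralog NFIA fell in PC3 (−0.47, adjusted p 0.0145) and rose in VCaP, from 137 ± 2.71 to 182 ± 7.47 CPM (0.42, adjusted p 0.00045), a called difference of 0.91 (adjusted p 0.000162). NFIC rose in VCaP (0.58, adjusted p 0.00539), and NFIX fell there slightly (−0.18, adjusted p 0.0390). TFCP2 and UBP1, of the grainyhead superfamily, fell by 0.23 and 0.22 on the log2 scale in VCaP. The GRHL2 paralog GRHL3 rose in VCaP at a low level, from 0.204 ± 0.102 to 0.510 ± 0.0793 CPM (1.33, adjusted p 0.0105). The paralog GRHL1, at a mean of 3.89 CPM in PC3, fell there (−0.93, adjusted p 0.00146). It was not called in VCaP (0.096, adjusted p 0.237), and the difference of 1.04 was called (adjusted p 3.61e-05). The other 2 relatives called lower in VCaP, at a mean under 5 CPM, were GATA6 (−1.82, adjusted p 6.38e-05, from 5.01 ± 1.01 to 1.41 ± 0.308 CPM) and GATA5 (−0.82, adjusted p 0.0195). Across 13 alternatives the number of relatives called lower in VCaP ran from 1, in the fit of all 12 libraries and without NSI replicate 3, to 5, while 5 were called higher in each.

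Genes known to respond to the glucocorticoid receptor were called higher in VCaP for 8 of 14 tested and lower for 0, by the edgeR test. DESeq2 gave the same counts, as did an unadjusted p under 0.05, and 7 or 8 were called higher in each alternative. Their median log2 fold change was 0.71 beside 0.02 over all genes. SGK1, a kinase gene induced by corticosteroids, went from 2.15 ± 0.282 to 13.1 ± 0.683 CPM (2.60, SE 0.113, adjusted p 3.83e-07). FKBP5, a co-chaperone that dampens steroid receptors, went from 48.7 ± 2.52 to 137 ± 7.16 CPM (1.49, adjusted p 4.43e-07), and CEBPD, a differentiation factor, rose by 1.5 (adjusted p 8.8e-06). In PC3 the same list split, with 4 of 15 called higher and 5 lower (median 0.01). SGK1 rose there as well, by 1.32 (SE 0.131, adjusted p 0.000227), with DUSP1 (0.92) and PDK4 (0.85), while PER1 (−0.65), KLF9 (−0.58) and FKBP5 (−0.51) fell. FKBP5 differed between the lines by 2.02 (SE 0.119, adjusted p 2.24e-08), and over the list 9 of 16 differences were called in the direction of VCaP and 1, DUSP1, in that of PC3. Many of these genes also answer other steroid receptors, so the list does not single out NR3C1.

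Chaperones, coregulators and ligand enzymes of the glucocorticoid receptor were described in the same way. In PC3, 0 of 19 were called higher and 7 lower (median −0.13), with 0 higher also by DESeq2 and at an unadjusted p under 0.05, but 2 higher with the replicate block. FKBP4, a co-chaperone that helps steroid receptors reach the nucleus, fell from 95.1 ± 9.36 to 56.5 ± 3.48 CPM in PC3 (−0.75, adjusted p 0.00104) and by 0.51 on the log2 scale in VCaP (adjusted p 0.000253). BAG1, another co-chaperone, and SMARCA4, a chromatin remodelling ATPase, had log2 fold changes of −0.70 and −0.66 in PC3. VCaP had 3 called higher and 6 lower of 19 (median −0.12). There the co-chaperone PTGES3 (−0.75, adjusted p 5.72e-05) and the coactivator NCOA3 (−0.52, adjusted p 0.000165) fell, and the corepressor NCOR1 (0.46) rose. HSD11B2, the enzyme that inactivates cortisol, rose in VCaP from 3.03 ± 0.369 to 7.51 ± 1.37 CPM (1.31, SE 0.153, adjusted p 0.000111). Its change differed between the lines by 3.66 (adjusted p 8.74e-08), from a PC3 change of −2.33 at under 5 CPM.

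Epithelial junction and surface genes linked to GRHL2 moved in both directions. In VCaP, where GRHL2 fell, 9 of 18 were called higher and 4 lower (median 0.21), beside 22.5% and 23.3% of all genes. CGN, a tight-junction plaque protein, rose from 49.5 ± 2.02 to 110.2 ± 5.61 CPM (1.16, SE 0.0638, adjusted p 1.28e-06), and the claudin gene CLDN4 (0.73) and the protease gene PRSS8 (0.71) rose too. Those that fell included the epithelial splicing regulators ESRP1 (−0.81, adjusted p 1.32e-05) and ESRP2 (−0.59, adjusted p 3.8e-05) and the desmosome gene DSP (−0.68, adjusted p 1.2e-05). In PC3, which had little GRHL2 in any library, 2 of 18 were called higher and 5 lower (median −0.21). ESRP2 fell there by 0.94 on the log2 scale (adjusted p 0.000792), E-cadherin CDH1 by 0.66 (adjusted p 0.0051) and EPCAM by 0.42 (adjusted p 0.00617), and CLDN7 rose by 0.76 (adjusted p 0.00322). The difference between the lines was called in the direction of VCaP for 8 of 18 and in that of PC3 for 2.

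Other transcription factors of glandular epithelium changed as well. SPDEF, an ETS factor of secretory cells, fell from 178 ± 17.6 to 21.2 ± 2.93 CPM in VCaP (−3.07, SE 0.117, adjusted p 2.17e-07) and from 89.1 ± 4.03 to 34.6 ± 2.72 CPM in PC3 (−1.36, adjusted p 2.64e-05). The fall was larger in VCaP by 1.68 on the log2 scale (adjusted p 1.4e-06). CREB3L4, a membrane-bound factor of prostate secretory cells, fell in VCaP by 1.69 (adjusted p 5.78e-07) and KLF5 by 0.72 (adjusted p 0.00529), while KLF4 rose by 1.37 (adjusted p 0.000146) and OVOL1 by 0.71. In PC3 ELF3 (−0.70) and TFAP2C (−0.68) fell and TBX3 (0.61) and TFAP2A (0.34) rose. KLF4 and TFAP2C went opposite ways in the lines: KLF4 fell in PC3 from 181 ± 3.77 to 122 ± 16.3 CPM (−0.57, adjusted p 0.00581), and TFAP2C rose in VCaP (0.39, adjusted p 0.00557). The differences between the lines were called for both (1.96 and 1.09, adjusted p 6.99e-06 and 4.48e-05). Over the list, 7 of 20 were called higher and 8 lower in VCaP (median −0.06; 3 to 8 called higher over the alternatives), and 3 of 17 higher and 8 lower in PC3 (median −0.34). Among repressors of epithelial genes, ZEB1 rose (0.65, adjusted p 0.0139) and SNAI2 fell (−0.45, adjusted p 0.00895) in PC3. In VCaP the summed level of these repressors was at most 1.21 CPM in any library. At that low level SNAI2 was called higher, from 0.0443 ± 0.0135 to 0.475 ± 0.205 CPM (3.37, adjusted p 0.0006), and its change differed between the lines by 3.88 (adjusted p 2.2e-05).

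Gut epithelial genes linked to HNF4 factors were called higher for 4 of 12 and lower for 5 in VCaP (median −0.30), with a summed level of no more than 21.0 CPM in a library. In PC3 4 of 14 were called higher (2 to 4 over the alternatives) and 4 lower. The mucin gene MUC13 rose there from 7.44 ± 0.591 to 25.4 ± 1.99 CPM (1.77, adjusted p 1.38e-05). CEACAM5 (−1.81), TFF1 (−1.78) and TFF3 (−0.96), surface and secreted proteins of mucosa, fell in PC3. Among SOX9 partners and cartilage genes, the link-protein gene HAPLN1 fell in PC3 from 759.8 ± 88.1 to 283 ± 25.1 CPM (−1.43, adjusted p 6.91e-05) in the line where SOX9 rose. Of 9 tested in PC3, 0 were called higher, by the edgeR test, by DESeq2 or at an unadjusted p under 0.05, and 2 were called lower (1 to 3 over the alternatives). In VCaP the collagen genes COL2A1 (−3.69) and COL9A2 (−1.74) fell and SOX6 rose (0.71, adjusted p 0.0244), and SOX9 was not called. Of the cofactors of GATA proteins, LMO4 fell in VCaP from 13.5 ± 0.217 to 4.65 ± 0.585 CPM (−1.54, adjusted p 3.43e-06). LDB1 rose by 0.17 (adjusted p 0.0430) in the main VCaP test, and the number of cofactors called higher there ran from 0 to 2 over the alternatives.

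**Figure D4:**
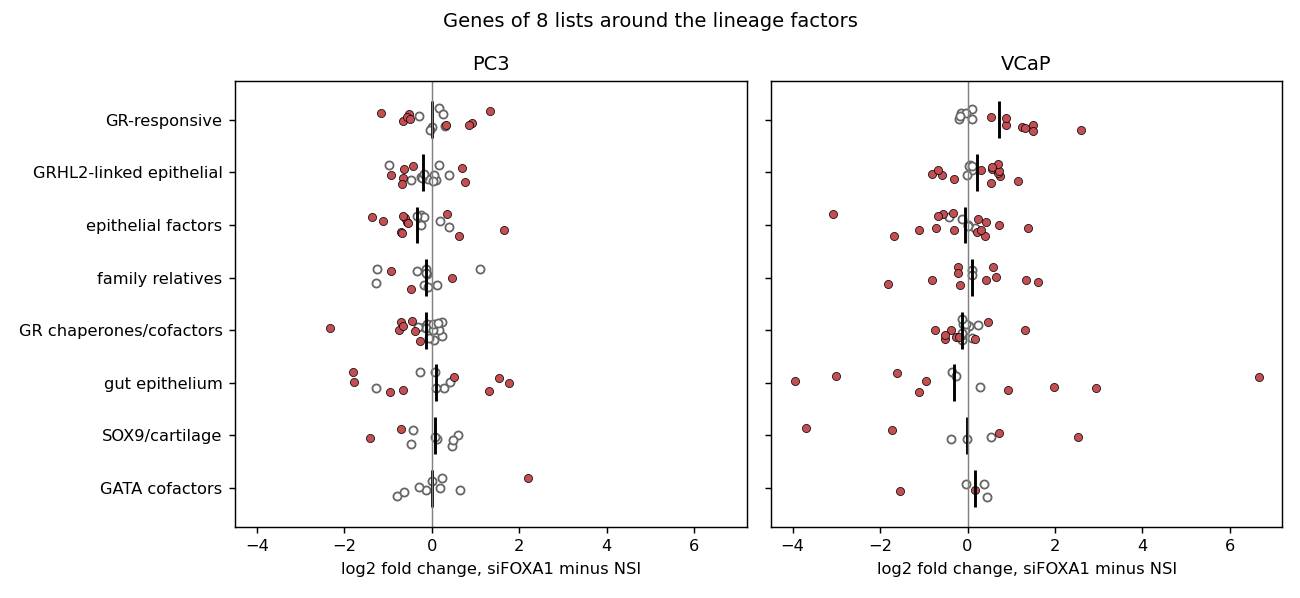
Log2 fold changes of the tested genes of 8 lists around the lineage factors in PC3 (left) and VCaP (right); filled points had an adjusted p under 0.05 and black bars are the list medians. The glucocorticoid-responsive genes lie to the right in VCaP (median 0.71) and spread around 0 in PC3, and every other list has filled points on both sides in VCaP.

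The genes most like each of the 7 were found by Pearson's r of log2 CPM over the 12 libraries after each line's mean was subtracted, among about 9356 candidates with at least 5 CPM in both lines. For HNF4G these were ESRP1 (r 0.97), the splicing regulator named above, and XPOT (0.97), a tRNA exporter. For GATA2 they were FAM72D (0.98), whose reads are shared with near-identical FAM72 copies, and CEP55 (0.97), a gene of cell division. NR3C1 was closest to ASCC3 (0.98) and WDR26 (0.97), SOX9 to CARF (0.97) and GABPB1-AS1 (0.96), and GATA3 to MATN2 (0.96) and CRY2 (0.96). GRHL2 was closest to FLOT2 (0.94) and USP5 (0.93), and NFIB to ADARB1 (0.90) and MORC2 (0.89). These values describe 12 libraries that share 4 groups, so r reflects the response to siFOXA1 as well as variation among replicates.

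Other gene groups moved with the knockdown beside these results. Interferon-stimulated genes were called higher for 10 of 10 in PC3, where their summed level went from between 470 and 683 CPM in NSI to between 4888 and 5079 CPM in siFOXA1. In VCaP 7 of 9 were called higher and 1 lower, and the sum went from between 78.7 and 82.6 to between 89.4 and 99.6 CPM. Proliferation genes were called lower for 8 of 10 in PC3 and 10 of 10 in VCaP. The part of either in the changes of the 7 genes was not tested. Of the 7 luminal markers matched, KLK2 and KLK3 were at 0.0137 and 0.00726 CPM in PC3 NSI cells, where KRT8, KRT18 and KRT19 were at 126, 273 and 581 CPM. PC3 thus carried the luminal keratins with next to none of KLK2 and KLK3, which goes against the name luminal for that line. In VCaP the luminal markers were called higher for 1 of 7 and lower for 4, among them ACPP (−2.15) and KLK2 (−1.05). In PC3 they were called higher for 2 of 5 and lower for 1. ACPP rose in PC3 (0.84, at a mean under 5 CPM), and its change differed between the lines by −2.97 (adjusted p 7.54e-09). The basal keratin gene KRT5 was at 0.0198 CPM in PC3 NSI and 0.0186 CPM in VCaP NSI cells. Summed basal markers ran from 320.0 to 387 CPM in PC3 NSI and from 327 to 401 in siFOXA1. In VCaP they ran from 305 to 387 in NSI and from 452 to 479 in siFOXA1. DST (0.59) was the only basal marker called in VCaP at a mean of at least 5 CPM. The basal keratin genes KRT15 (2.39) and KRT14 (−0.94) moved in opposite directions there. Summed fibroblast markers went from between 744 and 806 to between 808 and 930.05 CPM in PC3 (3 of 5 called higher, 1 lower) and from between 11.2 and 20.9 to between 2.20 and 8.39 CPM in VCaP (1 of 6 higher, 2 lower). Summed neuroendocrine markers went from between 55.7 and 69.0 to between 91.8 and 107 CPM in PC3, where 2 of 2 tested were called higher. In VCaP 1 of 7 neuroendocrine markers was called higher and 3 lower, among them INSM1 (−2.14) and NCAM1 (−2.005), and their sum ran from 63.6 to 78.9 CPM in NSI and from 63.0 to 84.0 CPM in siFOXA1. Summed immune and endothelial markers went without overlap from between 26.97 and 29.5 to between 44.9 and 50.5 CPM in PC3, with 3 of 5 called higher (2 by DESeq2) and 0 lower by the edgeR test, by DESeq2 or at an unadjusted p under 0.05. Most of that sum was CD68, a lysosomal protein gene, at 28.01 ± 1.29 and 46.6 ± 2.86 CPM, while the leukocyte gene PTPRC was at 0.0237 and 0.109 CPM. In VCaP the sum ran from 4.83 to 5.70 CPM in NSI and from 4.59 to 5.22 CPM in siFOXA1, with 1 of 3 called higher and 1 lower. The part of these cell-type markers in the results was not tested either.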

How the data were processed

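RNA sequencing counts of 12 libraries were analysed, grouped by the sample titles. Per the file headers, the authors' deposited values are estimated counts per gene made with featureCounts of Subread 2.0.0 on GRCh37, with GENCODE v28lift37 basic genes. A fragment with several places or genes was divided among them, which leaves fractions. PC3 counts ignored strand and VCaP counts used the reverse strand, again per the file headers. STAR 2.7.3a is named in the submitters' processing notes.

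Counts were rounded. Each line was fitted on its 6 libraries with edgeR 4.0.16 in R 4.3.3 (filterByExpr, TMM, quasi-likelihood test, two-sided, Benjamini-Hochberg adjustment over all genes tested). The difference between the lines was the contrast of both effects in a fit of all 12. CPM used TMM factors within a line. TPM used the exon lengths in the tables. The standard error is the log2 fold change divided by the square root of F. The fit was tested on simulated data. Alternatives were DESeq2 1.42.0 and its size factors, library size alone, upper-quartile factors, no filter, a replicate block, the fit of all 12 libraries, leaving out each library, and TPM without mitochondrial genes.

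The 7 genes, the gene lists and the tests were chosen with earlier results of these data known. Besides FOXA1 and the 7 genes, up to 3 called genes rising and 3 falling most were named for a list and line among those with a mean of at least 5 CPM, plus the 2 genes most like each of the 7. GATA5, GATA6, GRHL1, GRHL3, INSM1, NCAM1, PTPRC, KLK3, KRT5, KRT14, KRT15 and HNF4GP1 were named after their values were seen. So were genes whose values are given from a line outside that rule. Not every gene that meets this rule is reported here. CD24 and PECAM1, 2 listed markers, matched no row.

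No 2 replicates were alike within counting noise (chi-square per degree of freedom 9.80 to 141). Nothing in the labels says that replicates were separate cultures, so p-values measure only the spread between these libraries. The titles give both groups the same replicate numbers. After group means were subtracted, libraries with the same number correlated across genes of at least 5 CPM at 0.66, 0.72 and 0.30 in PC3 and at 0.18, −0.05 and 0.41 in VCaP. Over all genes tested they were 0.15, 0.31 and 0.09 in PC3 and 0.06, 0.04 and 0.28 in VCaP. The main fits have no block. Because every PC3 value over the better-measured genes is above 0.1, a hint from the data and not from the labels, blocked values are printed beside the results whose call they change.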

Additional observations from a re-analysis of the deposited data

Results flagged for a closer look

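The response of GATA3 differed between the lines by a log2 difference of 1.93 (VCaP change minus PC3 change, SE 0.376, edgeR quasi-likelihood adjusted p 0.00156), by a test of that difference over 12 libraries. The siFOXA1 libraries were higher than all NSI libraries in both lines, 3 of 3 each. Its VCaP value rests on 16.5 deposited counts over the 3 NSI libraries.

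The response of GRHL2 differed by −1.33 (SE 0.274, adjusted p 0.00238) in the same test. All 3 VCaP siFOXA1 libraries were lower than all 3 NSI libraries, while the PC3 groups overlapped, with 74.5 deposited counts over the 3 NSI libraries and 125 over the 3 siFOXA1 libraries. Both differences were called in all 18 alternatives run, with ranges of 1.58 to 2.54 for GATA3 and −1.68 to −1.11 for GRHL2.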

How the results depend on the processing

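GATA2, GATA3, GRHL2 and HNF4G in VCaP kept their direction and call in all 13 alternatives. FOXA1 was called lower in all 13 in each line, with log2 fold changes of −0.74 to −0.57 in PC3 and −2.67 to −2.53 in VCaP, and differed between the lines by −2.07 to −1.85 with 1 library left out. Leaving out 1 library gave 3945 to 7592 called genes in PC3 (3945 without siFOXA1 replicate 1, 4602 without NSI replicate 3), 8734 to 9975 in VCaP and 5477 to 7229 for the difference, and called 0 to 3, 4 to 6 and 2 to 3 of the 7. Without a filter, 1 of the 7 was called in PC3. The replicate block called 11297 genes in PC3. It added PC3 GATA3 and the NR3C1 difference (0.40) to the calls and changed no other call of the 7. The difference for GATA2, 0.08, turned to −0.0039 with library size alone, −0.015 without PC3 NSI replicate 1, −0.0098 without PC3 siFOXA1 replicate 3 and −0.0078 without VCaP siFOXA1 replicate 1 (highest 0.20, without VCaP siFOXA1 replicate 3), and that for NFIB, 0.10, to −0.13 without PC3 siFOXA1 replicate 2 (highest 0.16), none of them called; the cause was not tested. With library size alone, 2643 differences between the lines were higher and 3880 lower, against 3427 and 3333. Of 1408 list counts under alternatives, 1285 stayed within 1.5 times the main count. Depth limits GATA3 in VCaP and GRHL2 in PC3.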
